A study of Rattus norvegicus with 9 samples.

Results

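The transcripts described here come from 72 genes of the splicing machinery, out of the 30562 genes with a row in the deposited table of rat hippocampal RNA-seq. They were chosen by gene name alone and fall into 7 classes. These are 19 hnRNP genes (Hnrnp), 13 pre-mRNA processing factors (Prpf), 13 genes named for Sm and other snRNP proteins (Snrp), 12 SR protein genes (Srsf), 9 subunits of the SF3A and SF3B complexes, 3 U2AF genes and 3 Rbfox genes. Names holding the pseudogene mark -ps were left out, which removed 6 entries that held 40 counts over all libraries. Snrpd2l and Snrpel1, which RefSeq types as pseudogenes, carry no such mark and stay among the 72, with 3 and 6 counts over all libraries and no test. Enough counts for a test were present for 62 of the 72.

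The study followed male Sprague-Dawley rats, 6 to 8 weeks old at the start, in a model that joins diabetes with depression. ChryM is the group given chrysophanol, a plant anthraquinone, by gavage for 14 days. From the series title these were model rats, and the labels used here give no dose and do not say what the M stands for. Model rats had 4 weeks of a high-fat diet and 1 injection of streptozotocin at 50 mg/kg, which kills pancreatic beta cells. A fasting glucose of at least 16.7 mmol/L was required, and 5 weeks of chronic unpredictable mild stress followed. Ctrl is the normal control group, and rats were assigned to it or to the model at random. Each group has 3 libraries of poly(A) RNA from hippocampus. The labels do not say that the 3 libraries came from separate animals, so p-values measure only how far these libraries scatter, and that scatter may be technical.

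Splicing removes each intron in a series of steps. The U1 particle binds the 5′ splice site, U2AF marks the 3′ splice site, and the SF3A and SF3B complexes hold the U2 particle on the branch point. The Sm proteins form the ring around the RNA of each of the major spliceosomal particles except U6, and many Prpf proteins, named after yeast prp mutants, build or remodel the spliceosome. SR proteins mostly promote the use of exons, many hnRNPs oppose them, and the Rbfox proteins are splicing regulators of neurons, of which Rbfox3 is the neuronal nuclear antigen NeuN.

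The libraries were shallow. They held 631119 to 866048 counts each, with 13343 to 14256 genes detected, and the 72 genes took 0.5113% to 0.6121% of the counts. Per-library values below are CPM (counts scaled to the same library size), adjusted by trimmed mean of M-values factors that lay between 0.9578 and 1.06. Levels of different genes are compared only as FPKM, which also divides by gene length. The libraries were made with a strand-specific kit, but the strand setting used in counting is not given in the sources used here. In all 9 libraries the mitochondrial light-strand gene Mt-nd6 had more counts (13640 to 29420 CPM) than any other mitochondrial protein gene, such as Mt-co1 (10700 to 12330 CPM). Reads of a gene and of a transcript on its opposite strand therefore cannot be told apart here. At least 17 of the 72 genes overlap an opposite-strand gene in the RefSeq annotation. In all, 29 overlap another gene, and for some of these the strand of the gene or of its partner was not known. How far the levels and changes below hold opposite-strand reads was not tested.

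The cell makeup of the pieces also differed between groups. All 7 pan-neuronal markers were detected. The summed level of 10 choroid plexus markers was 72.7 to 86.9 CPM in ChryM, 33.3 to 44 CPM in Model and 1752 to 1816 CPM in Ctrl. The 12 myelin markers summed to 15098 to 16501 CPM in ChryM, 8524 to 9450 CPM in Model and 15595 to 16754 CPM in Ctrl. The 5 meningeal markers summed to 20.8 to 24.2 CPM in ChryM, 17.4 to 24.6 CPM in Model and 141 to 157 CPM in Ctrl. Lists of other cells also differed. Erythroid markers summed to 27.7 to 35.2 CPM in ChryM, 15.1 to 27.2 CPM in Model and 79.7 to 106 CPM in Ctrl, and oligodendrocyte precursor markers to 180 to 208 CPM in ChryM, 171 to 185 CPM in Model and 261 to 287 CPM in Ctrl. Astrocyte markers summed to 957 to 993 CPM in ChryM, 1002 to 1084 CPM in Model and 1132 to 1340 CPM in Ctrl. Endothelial markers summed to 39.3 to 45.3 CPM in ChryM, 53.9 to 69.9 CPM in Model and 70.1 to 86.7 CPM in Ctrl, and microglial markers to 71.6 to 97 CPM in ChryM, 108 to 139 CPM in Model and 113 to 137 CPM in Ctrl. No marker of these lists found in the table was at 0 over all libraries. Their part in the differences below was not tested, and in bulk tissue fewer cells of a type and less RNA per cell cannot be told apart.

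Levels spanned a wide range. The SR protein gene Srsf9 was the highest of the 72, with a mean of 147 FPKM over the 9 libraries. Next came Hnrnpu, which encodes a nuclear scaffold protein, at 109 FPKM, Hnrnpab at 93.4 FPKM, Hnrnpa2b1 at 88.1 FPKM and Rbfox3 at 77.8 FPKM. Neither Srsf9 nor Hnrnpu passed the test in any comparison. Srsf9 had 703, 700 and 697 CPM in ChryM, 698, 741 and 692 CPM in Model, and 697, 646 and 665 CPM in Ctrl. Dynll1 and Gatc lie on the opposite strand within 5 kb of Srsf9 and averaged 377 and 33.1 CPM. Dynll1 was called higher in Model vs Ctrl (log2 fold change 0.33 ± 0.09, edgeR adjusted p 0.00579) and in ChryM vs Ctrl (0.28 ± 0.09, adjusted p 0.0147), and Gatc passed no test. The part of both in the Srsf9 counts was not tested. Hnrnpu had 407, 408 and 397 CPM in ChryM, 365, 347 and 361 CPM in Model, and 393, 349 and 368 CPM in Ctrl, with all ChryM libraries above all others. Its largest fold change, 0.17 ± 0.09 (log2, SE) for ChryM vs Model, had an adjusted p of 0.263. The class leaders were lower in FPKM for the core machinery, with Prpf19 at 35.9, U2af1 at 33.5, Snrpd2 at 31.9 and Sf3b2 at 28.3 FPKM. The 10 genes without a test were Srsf8, which had no count, U2af1l4, Snrpd2l, Snrpel1, Snrpg, Prpf4, Srsf12, Snrpa, Sf3b6 and Snrpb2, with at most 59 counts each over the 9 libraries.

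**Figure D1:**
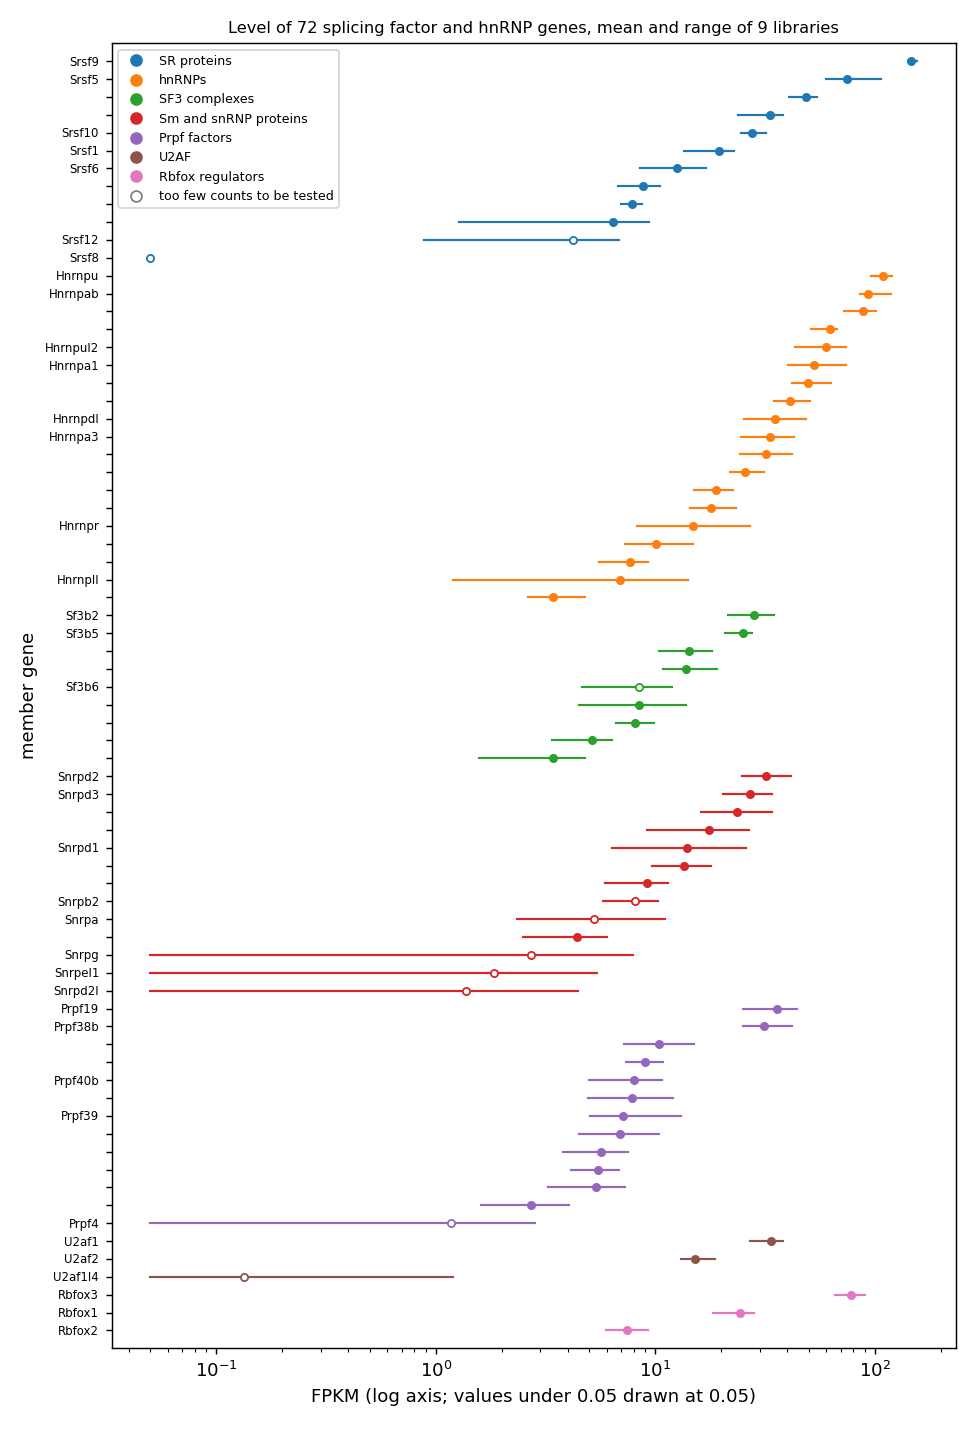
Level of the 72 genes as FPKM on a log axis, 1 row per gene, ordered by class and then by level, with names on the rows of genes chosen for the text and of those without a test. Points are means and lines the range over 9 libraries, and open points mark the 10 genes without a test. Srsf9 at 147 FPKM is the highest.

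Of the 62 tested genes, 16 were called in at least 1 comparison. The share of all genes called in at least 1 comparison was not taken, so this count has no background beside it. A call is an adjusted p under 0.05 from the edgeR quasi-likelihood fit, where Benjamini-Hochberg adjustment ran across the 7073 genes that entered it. In ChryM vs Model 2 were higher and 0 lower, where 8.27% of all genes tested were called, 3.86% higher and 4.41% lower. At an unadjusted p under 0.05 the counts were 9 higher and 3 lower. DESeq2 called 0 higher and 0 lower, and limma called 1 higher and 0 lower. DESeq2 gave no adjusted p for 19 of the 62 in ChryM vs Model, 20 in Model vs Ctrl and 15 in ChryM vs Ctrl, so its counts cover fewer genes, and among the edgeR calls it gave none for Prpf39, Snrpd1 and Hnrnpll. In Model vs Ctrl 1 was higher and 6 lower, where 12.4% of all genes were called, 7.04% higher and 5.39% lower. In ChryM vs Ctrl 7 were higher and 4 lower, where 18.8% of all genes were called, 9.83% higher and 8.96% lower. The share called was 3.2% of the 62 in ChryM vs Model, 11.3% in Model vs Ctrl and 17.7% in ChryM vs Ctrl, which is close to the share over all genes in the comparisons with Ctrl and under it in ChryM vs Model. The median log2 fold change was 0.12 in ChryM vs Model, against 0.0015 for all genes, -0.04 in Model vs Ctrl, against -0.02, and 0.06 in ChryM vs Ctrl, against -0.0096. The comparisons share libraries, so they are not independent of each other.

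The counts moved with the scaling. With library totals in place of the scaling factors, the median of all genes moved to 0.06 in ChryM vs Model, -0.13 in Model vs Ctrl and -0.07 in ChryM vs Ctrl. Over all genes, ChryM vs Model then had 369 higher and 254 lower calls (273 and 312 with the factors). Model vs Ctrl had 290 higher and 641 lower (498 and 381 with the factors), and ChryM vs Ctrl had 533 higher and 799 lower (695 and 634 with the factors). The median of the 62 tested splicing genes became 0.18 in ChryM vs Model, -0.15 in Model vs Ctrl and -0.0025 in ChryM vs Ctrl.

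**Figure D2:**
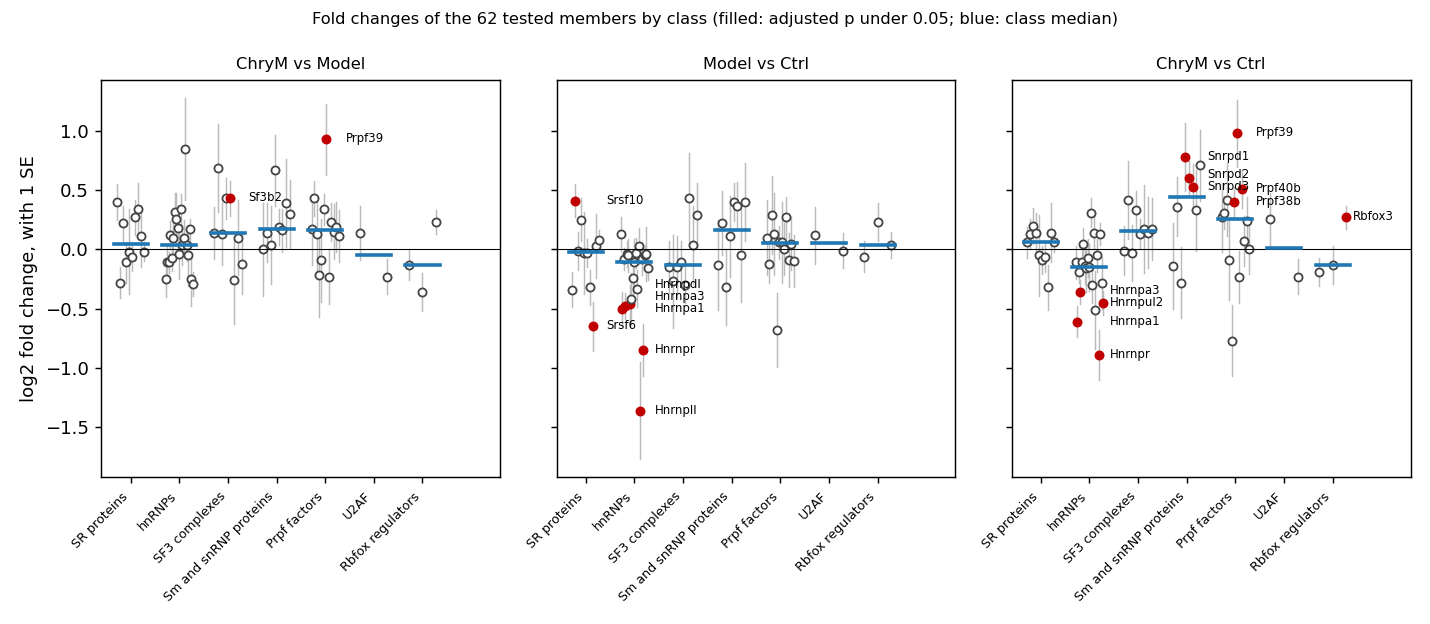
Log2 fold changes of the 62 tested genes by class in ChryM vs Model, Model vs Ctrl and ChryM vs Ctrl, with 1 SE as grey bars. Filled red points passed an adjusted p of 0.05 and are named, and blue lines are class medians. The hnRNP medians are -0.11 in Model vs Ctrl and -0.15 in ChryM vs Ctrl, and the Sm and snRNP median is 0.45 in ChryM vs Ctrl.

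The hnRNPs were the class with the most calls, all of them lower than in Ctrl. In Model vs Ctrl 5 of 19 fell, namely Hnrnpa1, Hnrnpa3, Hnrnpr, Hnrnpll and Hnrnpdl. This is 26.3% of the class, against 5.39% of all genes tested called lower. DESeq2 called 1 lower there, and limma 3 at a pseudocount of 1 and 2 at 0.1. In ChryM vs Ctrl 4 of 19 fell, namely Hnrnpa1, Hnrnpa3, Hnrnpr and Hnrnpul2. This is 21.1% of the class, against 8.96% of all genes tested called lower. DESeq2 called 2 lower there, and limma 3 at either pseudocount. In ChryM vs Model 0 of 19 passed by edgeR, with 1 higher and 1 lower at an unadjusted p under 0.05, and 0 by DESeq2 and limma. With library totals edgeR called 1 higher, and with a mean count of at least 30 it called 1 higher and 1 lower of 17. The class median in ChryM vs Model was 0.04 (0.09 with library totals). The fitted fold change was negative for 17 of 19 in Model vs Ctrl, with a median of -0.11 (-0.22 with library totals), and for 15 of 19 in ChryM vs Ctrl, with a median of -0.15 (-0.21 with library totals). Of all 7073 genes tested, 3664 were negative in Model vs Ctrl and 3637 in ChryM vs Ctrl. Summed over the 19 genes, the hnRNPs held 2369 ± 84.4 CPM of the library totals in ChryM, 2250 ± 119 CPM in Model and 2724 ± 169 CPM in Ctrl (SD, n = 3 each). With the scaling factors, a setting chosen after seeing the data, these sums were 2371 ± 39.9 CPM in ChryM, 2338 ± 130 CPM in Model and 2617 ± 90.7 CPM in Ctrl, and no ChryM or Model library reached the lowest Ctrl library on either scale.

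Windows of 250 bases before the RefSeq transcription start (build GRCr8) are printed for called genes picked from 2 classes. These are 3 hnRNPs lower in both Model and ChryM than in Ctrl and the Sm D genes higher in ChryM than in Ctrl. The 3 Prpf genes called higher in ChryM vs Ctrl are not printed. The windows show what these promoters hold. Capitals mark a match to CCAAT, the NF-Y box, to the GC box GGGCGG or to the ETS-type motif CCGGAAG. Both strands were searched, so that a match may stand as its reverse complement, and overlapping GC boxes are capitalized as 1 run.
Hnrnpa1, chr7:136253868-136254117, plus strand: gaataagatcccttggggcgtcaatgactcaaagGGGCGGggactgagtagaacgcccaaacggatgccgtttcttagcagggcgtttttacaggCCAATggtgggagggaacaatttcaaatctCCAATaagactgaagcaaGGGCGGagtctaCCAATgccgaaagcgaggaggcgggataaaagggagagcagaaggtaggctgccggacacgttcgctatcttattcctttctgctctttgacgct
Hnrnpa3, chr3:80985684-80985933, plus strand: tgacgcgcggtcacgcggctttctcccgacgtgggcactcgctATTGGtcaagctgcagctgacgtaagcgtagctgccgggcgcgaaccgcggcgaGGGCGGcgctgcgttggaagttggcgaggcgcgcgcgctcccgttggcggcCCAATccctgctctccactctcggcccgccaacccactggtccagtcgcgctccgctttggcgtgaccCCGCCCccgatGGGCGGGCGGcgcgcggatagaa
Hnrnpr, chr5:153826269-153826518, plus strand: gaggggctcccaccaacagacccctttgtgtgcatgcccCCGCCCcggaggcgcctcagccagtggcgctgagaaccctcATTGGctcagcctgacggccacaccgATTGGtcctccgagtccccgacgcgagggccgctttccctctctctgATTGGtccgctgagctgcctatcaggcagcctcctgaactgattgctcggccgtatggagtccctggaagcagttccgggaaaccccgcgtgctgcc
Snrpd1, chr18:1969424-1969673, plus strand: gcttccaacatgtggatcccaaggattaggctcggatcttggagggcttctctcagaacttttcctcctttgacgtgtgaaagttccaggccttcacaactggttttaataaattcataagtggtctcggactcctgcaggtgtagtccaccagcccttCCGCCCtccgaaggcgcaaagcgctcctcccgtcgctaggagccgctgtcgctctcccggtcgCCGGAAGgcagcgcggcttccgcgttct
Snrpd2, chr1:87926159-87926408, plus strand: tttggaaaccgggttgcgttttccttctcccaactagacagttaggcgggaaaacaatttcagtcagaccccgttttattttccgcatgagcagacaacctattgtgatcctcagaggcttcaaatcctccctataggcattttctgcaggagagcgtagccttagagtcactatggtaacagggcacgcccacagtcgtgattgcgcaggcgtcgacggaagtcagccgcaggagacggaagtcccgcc
Snrpd3, chr20:13144921-13145170, minus strand: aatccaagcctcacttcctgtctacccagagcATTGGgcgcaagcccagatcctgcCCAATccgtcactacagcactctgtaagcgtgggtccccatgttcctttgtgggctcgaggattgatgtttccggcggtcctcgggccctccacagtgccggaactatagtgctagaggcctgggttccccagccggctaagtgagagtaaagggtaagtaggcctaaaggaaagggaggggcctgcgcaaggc

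CCAAT stood 3 times in the Hnrnpa1 window, 2 times in that of Hnrnpa3 and 3 times in that of Hnrnpr. It was also present in the windows of Hnrnpdl and Hnrnpul2, once each, and in 13 of the 18 hnRNP windows matched. Of the 64 members with a window, 48.4% held CCAAT, against 34% of the 33469 windows of the table. GGGCGG was in 53.1%, against 30.5%, and CCGGAAG in 26.6%, against 7.27%. CACGTG was in 10.9%, against 5.59%, TATAAA in 9.38%, against 12.9%, and the NRF1 palindrome in 3.12%, against 0.762%. The median GC content of the windows was 58% for members, against 51.2% over the table. Among the Sm D genes Snrpd1 held GGGCGG and CCGGAAG once each, Snrpd3 held CCAAT 2 times, and the Snrpd2 window held none of the 6 motifs. A match is a string of letters and not a measured site.

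Hnrnpa1, the founding A/B hnRNP that opposes SR proteins in the choice of splice sites, had 89.1, 90.4 and 81.8 CPM in ChryM, 112, 86 and 85.3 CPM in Model and 139, 138 and 120 CPM in Ctrl. All ChryM and Model libraries lay below all Ctrl libraries. The log2 fold change was -0.61 ± 0.13 (SE) in ChryM vs Ctrl (edgeR adjusted p 0.000213) and -0.5 ± 0.14 in Model vs Ctrl (adjusted p 0.00659). The ChryM vs Ctrl call stood in every alternative run, while that of Model vs Ctrl was lost without Model replicate 3 (adjusted p 0.0843) and with DESeq2 (0.0865). Its opposite-strand neighbour Cbx5 averaged 24.5 CPM and passed no test.

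Hnrnpa3, a close relative of Hnrnpa1, had 194, 197 and 150 CPM in ChryM, 199, 156 and 148 CPM in Model and 226, 236 and 237 CPM in Ctrl. Here too no ChryM or Model library reached the lowest Ctrl library. Model vs Ctrl gave a log2 fold change of -0.48 ± 0.11 (edgeR adjusted p 0.000641), a call that stood in every alternative run. In ChryM vs Ctrl it was -0.36 ± 0.1 (adjusted p 0.00671). That call was lost without ChryM replicate 3 (adjusted p 0.112), with DESeq2 (0.107) and with limma (0.0916 and 0.0957).

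Hnrnpr, which in motor neurons of the mouse is known to bind mRNAs carried along the axon, had the larger change but the lower count. It stood at 22, 28.2 and 41.5 CPM in ChryM, 28.4, 44.7 and 22.7 CPM in Model and 68.4, 51.4 and 47.9 CPM in Ctrl. The groups did not overlap with Ctrl, although the spread within each was wide. The log2 fold change was -0.89 ± 0.21 in ChryM vs Ctrl (edgeR adjusted p 0.000634) and -0.85 ± 0.22 in Model vs Ctrl (adjusted p 0.00373). DESeq2 gave adjusted p 0.0542 and 0.0891 for these. The Model vs Ctrl call was also lost without Model replicate 3 (0.101), without Ctrl replicate 1 (0.0868) and with limma (0.0505 and 0.0563). No gene overlaps Hnrnpr in the annotation.

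Hnrnpul2, a relative of Hnrnpu, had 210, 211 and 178 CPM in ChryM, 268, 235 and 232 CPM in Model and 280, 276 and 264 CPM in Ctrl. ChryM lay below both other groups, while Model and Ctrl overlapped. ChryM vs Ctrl gave a log2 fold change of -0.45 ± 0.1 (edgeR adjusted p 0.000214), with the call kept in every alternative run. In ChryM vs Model it was -0.29 ± 0.1, which did not pass (adjusted p 0.0716, and 0.0413 when only genes with a mean count of at least 30 were tested). In Model vs Ctrl it was -0.16 ± 0.1 (adjusted p 0.336).

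The remaining hnRNP calls rested on fewer libraries. Hnrnpll, known in T cells as a regulator of CD45 exon choice, had 9.77, 19.2 and 14.7 CPM in ChryM, 17.4, 4.96 and 2.67 CPM in Model and 18.9, 15.2 and 30.1 CPM in Ctrl. The Model and Ctrl groups overlapped. Its Model vs Ctrl log2 fold change was -1.36 ± 0.41 (edgeR adjusted p 0.0109). The adjusted p was 0.0701 without Model replicate 2, 0.203 without Model replicate 3, 0.126 without Ctrl replicate 3 and 0.0539 with limma at a pseudocount of 0.1. Hnrnpdl, a paralogue of the mRNA decay factor gene Hnrnpd, had 101, 63.2 and 109 CPM in ChryM, 85.2, 66.2 and 65.3 CPM in Model and 96.7, 114 and 84.9 CPM in Ctrl, again with overlap. Its log2 fold change was -0.46 ± 0.16 in Model vs Ctrl (adjusted p 0.0402), with the call lost by DESeq2 (0.248), by limma (0.104 and 0.111), with no count filter (0.101), and without Model replicate 2 (0.138), Model replicate 3 (0.203), Ctrl replicate 1 (0.083) or Ctrl replicate 2 (0.281). Hnrnpdl overlaps Enoph1 on the opposite strand, which averaged 39.6 CPM and passed no test.

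**Figure D3:**
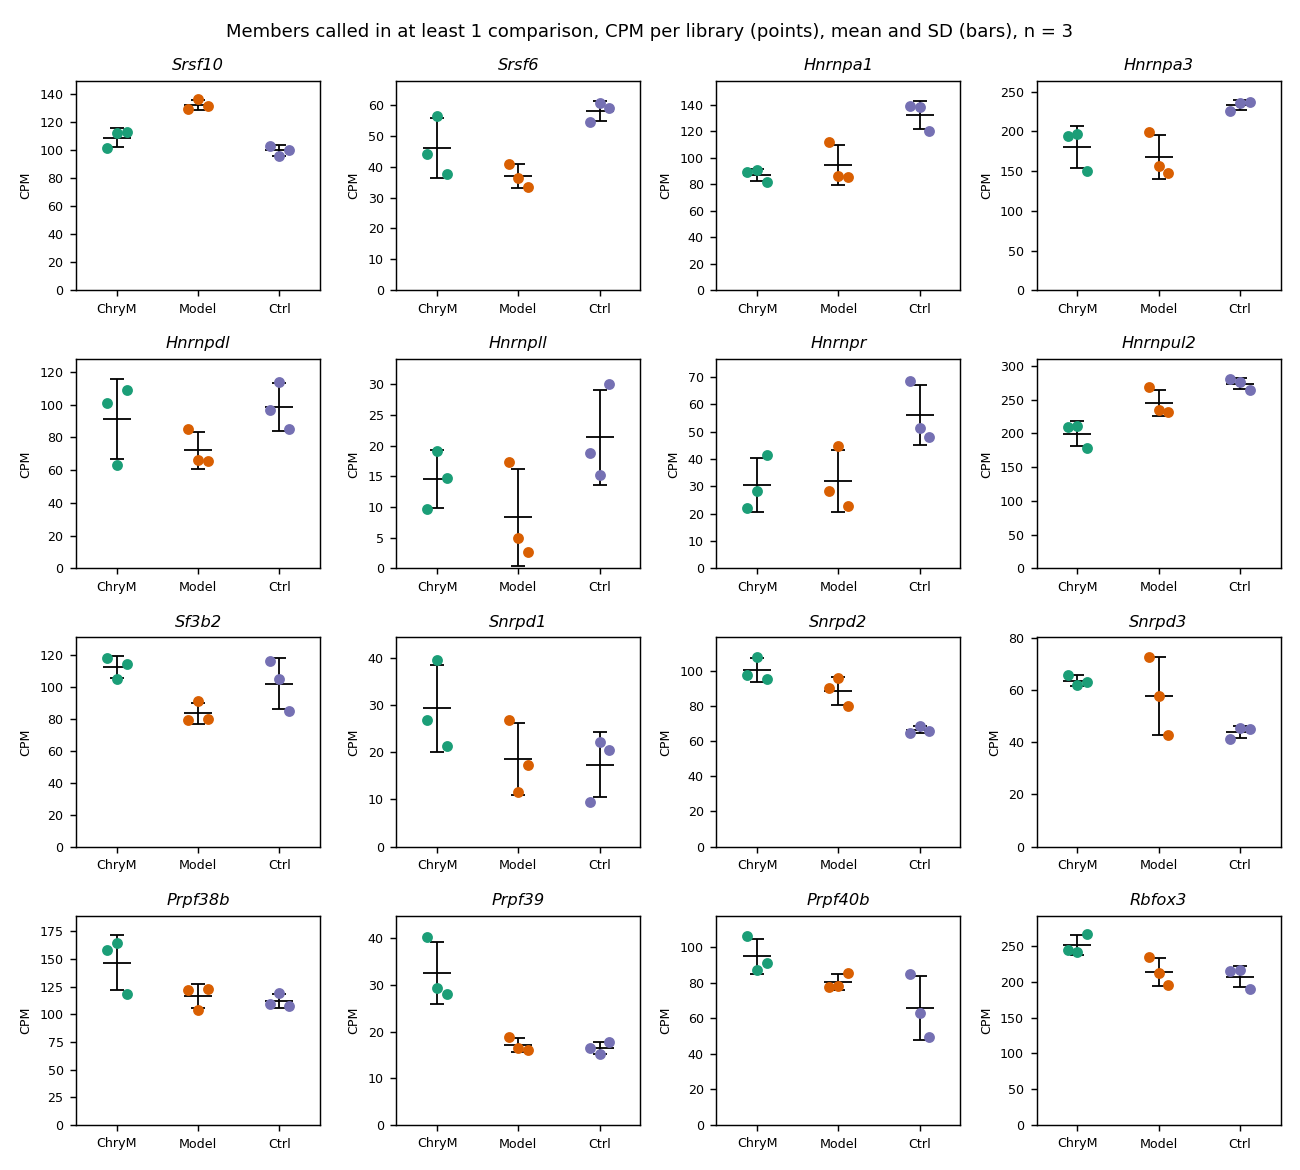
CPM of the 16 genes called in at least 1 comparison, 1 panel per gene, with ChryM, Model and Ctrl from left to right. Points are libraries and bars the mean and SD of 3. Hnrnpa1 lies at 81.8 to 112 CPM in ChryM and Model and at 120 to 139 CPM in Ctrl, and Prpf39 is above 28 CPM only in ChryM.

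SR proteins gave few calls, which in Model vs Ctrl were 20% of those tested, against 12.4% of all genes tested. Of 10 tested, 1 was higher and 1 lower in Model vs Ctrl, against 0 higher and 3 lower both with library totals and with a mean count of at least 30, and 0 passed in either other comparison by edgeR, DESeq2 or limma. At an unadjusted p under 0.05 they were 1 higher and 1 lower in ChryM vs Model and 0 in ChryM vs Ctrl. DESeq2 gave an adjusted p for 8 of the 10 in ChryM vs Model and for 9 in ChryM vs Ctrl. Srsf6, an SR protein that activates exon inclusion, had 44, 56.5 and 37.5 CPM in ChryM, 41, 36.4 and 33.3 CPM in Model and 54.3, 60.7 and 58.9 CPM in Ctrl. Model lay below Ctrl in all libraries, and ChryM overlapped both. Its log2 fold change was -0.65 ± 0.21 in Model vs Ctrl (edgeR adjusted p 0.0217), lost without Model replicate 2 (0.0637), Model replicate 3 (0.138) or Ctrl replicate 2 (0.08), with no count filter (0.0618) and with DESeq2 (0.142). Srsf10, known as a repressor of splicing when dephosphorylated, had 101, 112 and 113 CPM in ChryM, 129, 136 and 131 CPM in Model and 103, 95.8 and 99.9 CPM in Ctrl. Model was above both other groups. Model vs Ctrl gave a log2 fold change of 0.41 ± 0.14 (adjusted p 0.0294).

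The Srsf10 call was a narrow one. It was lost with library totals (0.29, adjusted p 0.152), DESeq2 (0.0965), limma (0.183 at both pseudocounts), no count filter (0.0512) or a mean count of at least 30 (0.0505). It was also lost without any 1 Model library (adjusted p 0.0624 to 0.0951), without Ctrl replicate 1 (0.0555) or without Ctrl replicate 2 (0.107). Pnrc2, which lies on the opposite strand within 5 kb of Srsf10, averaged 2645 CPM. It was itself higher in Model vs Ctrl, with a log2 fold change of 0.3 ± 0.07 (edgeR adjusted p 0.000738), and its part in the Srsf10 counts was not tested. Srsf1, the best known exon activator of the family, had 101, 114 and 114 CPM in ChryM, 91.6, 89.3 and 70.7 CPM in Model and 109, 99.3 and 108 CPM in Ctrl. All Model libraries lay below the others. Its log2 fold change was 0.4 ± 0.15 in ChryM vs Model (adjusted p 0.0767) and -0.34 ± 0.15 in Model vs Ctrl (adjusted p 0.131), neither past the threshold, although ChryM vs Model passed with library totals (0.0345) and with a mean count of at least 30 (0.0374). Srsf5 averaged 75.1 FPKM, the 6th highest of the 72, and its log2 fold change of -0.32 ± 0.15 in Model vs Ctrl did not pass (adjusted p 0.145).

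In the class of Sm and other snRNP proteins, the genes that passed a test were higher in ChryM than in Ctrl. Of 8 tested, 3 passed and were higher by edgeR, namely the Sm D protein genes Snrpd1, Snrpd2 and Snrpd3. This is 37.5% of those tested, against 9.83% of all genes called higher. DESeq2 gave an adjusted p for 3 of the 8 and called 1 higher, and limma called 2 higher at either pseudocount. The class median was 0.45, and 0.39 with library totals. By edgeR 0 of the 8 passed in ChryM vs Model (median 0.18) and in Model vs Ctrl (median 0.16), with 1 higher at an unadjusted p under 0.05 in each and 0 calls by DESeq2 and limma. DESeq2 gave an adjusted p for only 2 of the 8 in each of these comparisons, so it could call no others. Summed over its 13 genes, the class held 320 ± 32.3 CPM of the library totals in ChryM, 265 ± 23.7 CPM in Model and 241 ± 7.11 CPM in Ctrl (SD, n = 3 each). With the scaling factors they were 320 ± 26.7 CPM in ChryM, 275 ± 26.1 CPM in Model and 232 ± 2.95 CPM in Ctrl.

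Snrpd2 had 97.7, 108 and 95.2 CPM in ChryM, 90, 95.9 and 80 CPM in Model and 64.9, 68.9 and 65.7 CPM in Ctrl. Every ChryM and Model library was above every Ctrl library. The log2 fold change was 0.6 ± 0.15 in ChryM vs Ctrl (edgeR adjusted p 0.00136), kept in every alternative run, and 0.4 ± 0.16 in Model vs Ctrl (adjusted p 0.0883). Snrpd3 had 65.9, 62.1 and 63 CPM in ChryM, 72.6, 57.9 and 42.7 CPM in Model and 41.3, 45.5 and 45.2 CPM in Ctrl. ChryM was above Ctrl in all libraries, and Model spanned the gap between them. ChryM vs Ctrl gave a log2 fold change of 0.53 ± 0.19 (adjusted p 0.0305). That call was lost without any 1 ChryM or Ctrl library (adjusted p 0.0501 to 0.113), with library totals (0.0642), DESeq2 (0.151) and limma (0.0995 and 0.103). Snrpd3 overlaps Gucd1 on the opposite strand, which averaged 4.55 CPM and entered no test.

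Snrpd1 had 26.9, 39.5 and 21.4 CPM in ChryM, 26.8, 11.6 and 17.3 CPM in Model and 9.44, 22.2 and 20.5 CPM in Ctrl. ChryM and Ctrl overlapped. Its ChryM vs Ctrl log2 fold change was 0.78 ± 0.29 (edgeR adjusted p 0.0391). It rested on single libraries, with an adjusted p of 0.365 without ChryM replicate 2, 0.345 without Ctrl replicate 1 and 0.0511 without ChryM replicate 1. It was also lost with library totals (0.0634), no count filter (0.0588) and limma (0.21 and 0.222). Snrpf, another ring member, had a fold change of 0.71 ± 0.3 in ChryM vs Ctrl that did not pass in edgeR (adjusted p 0.083) but did in limma (0.0393 and 0.0415 at the pseudocounts of 1 and 0.1), and it is named here because its value was seen to be close to those of the Sm D genes.

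SF3 and U2AF, which act at the branch point and the 3′ splice site, gave 1 call by edgeR, with 8 SF3 and 2 U2AF genes tested. It fell in ChryM vs Model and was 12.5% of the SF3 genes tested, against 3.86% of all genes called higher. Sf3b2, a subunit of SF3B that contacts RNA near the branch site, had 118, 105 and 114 CPM in ChryM, 78.9, 91 and 80 CPM in Model and 116, 105 and 84.9 CPM in Ctrl. ChryM was above Model in all libraries, and Ctrl overlapped both. ChryM vs Model gave a log2 fold change of 0.43 ± 0.15 (edgeR adjusted p 0.046). The call was lost without any 1 ChryM or Model library (adjusted p 0.0576 to 0.168), with no count filter (0.0974), DESeq2 (0.217) and limma (0.0935 and 0.0945). Gal3st3 overlaps Sf3b2 in the annotation, averaged 40.9 CPM and had a log2 fold change of 0.5 ± 0.23 in the same comparison (adjusted p 0.206).

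The 9 SF3 genes together held 354 ± 9.92 CPM of the library totals in ChryM, 283 ± 3.74 CPM in Model and 329 ± 26.6 CPM in Ctrl (SD, n = 3 each). Library by library they stood at 354, 364 and 344 CPM in ChryM, 282, 287 and 280 CPM in Model and 336, 352 and 300 CPM in Ctrl. With the scaling factors they were 353, 356 and 354 CPM in ChryM, 294, 299 and 288 CPM in Model and 318, 332 and 298 CPM in Ctrl. Model lay below ChryM on both scales, while Model and Ctrl overlapped with the scaling factors and not with library totals. These sums are values with no test. The U2AF genes held 120 ± 3.91 CPM in ChryM, 126 ± 6.87 CPM in Model and 133 ± 11 CPM in Ctrl of the library totals. With the scaling factors they held 120 ± 0.916 CPM in ChryM, 131 ± 6.31 CPM in Model and 128 ± 7.11 CPM in Ctrl, so that the order of Model and Ctrl depended on the scale. U2af1 and U2af2 gave 0 calls by edgeR, DESeq2 or limma, with 0 at an unadjusted p under 0.05 in the 3 comparisons. DESeq2 gave no adjusted p for 1 of them in Model vs Ctrl.

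**Figure D4:**
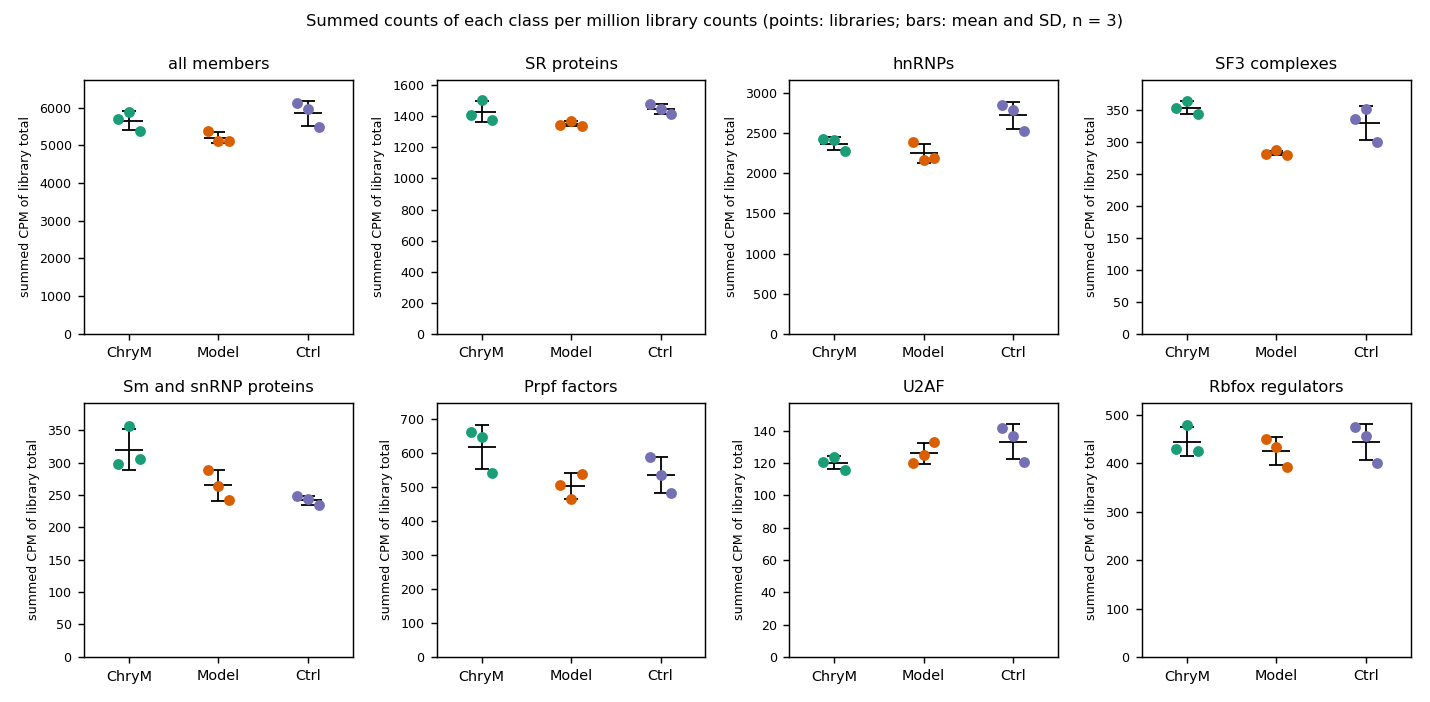
Summed CPM of each class per library, in CPM of the library total, with ChryM, Model and Ctrl from left to right. Points are libraries and bars the mean and SD of 3. The hnRNP sums reach 2272 to 2422 in ChryM, 2168 to 2386 in Model and 2532 to 2851 in Ctrl. The SF3 sums lie at 344 to 364 in ChryM, 280 to 287 in Model and 300 to 352 in Ctrl, and Model and Ctrl overlap once the scaling factors are applied.

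Prpf genes gave 3 calls of 12 tested in ChryM vs Ctrl, all higher, 1 in ChryM vs Model, also higher, and 0 in Model vs Ctrl by edgeR. The shares were 25% in ChryM vs Ctrl and 8.3% in ChryM vs Model, against 9.83% and 3.86% of all genes called higher. DESeq2 called 0 of the 7 Prpf genes to which it gave an adjusted p in each comparison, and limma called 1 higher and 1 lower in ChryM vs Ctrl and 1 higher in ChryM vs Model. In Model vs Ctrl 0 were higher and 1 lower at an unadjusted p under 0.05. The lower gene was Prpf38a, which limma called in Model vs Ctrl at a pseudocount of 1 only (adjusted p 0.0484). Prpf38a, named here after its values were seen, had 17.1, 13.6 and 14.7 CPM in ChryM, 12.6, 19.9 and 16 CPM in Model and 24.8, 28 and 24.6 CPM in Ctrl. All Ctrl libraries were above the others, and its ChryM vs Ctrl log2 fold change of -0.77 ± 0.3 did not pass in edgeR (adjusted p 0.051) but did in limma (0.033 and 0.0364). The class median was 0.25 in ChryM vs Ctrl, 0.16 in ChryM vs Model and 0.05 in Model vs Ctrl (-0.06 with library totals). Prpf39, an alternative splicing factor of the U1 particle, was the member with the largest rise. It had 40.3, 29.4 and 28.1 CPM in ChryM, 18.9, 16.5 and 16 CPM in Model and 16.5, 15.2 and 17.8 CPM in Ctrl. All ChryM libraries were above all others, and Model and Ctrl overlapped. The log2 fold change was 0.93 ± 0.3 in ChryM vs Model (edgeR adjusted p 0.0247) and 0.98 ± 0.28 in ChryM vs Ctrl (adjusted p 0.00467).

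The Prpf39 difference was smaller without ChryM replicate 1. The log2 fold change was then 0.74 in ChryM vs Model (adjusted p 0.198) and 0.8 in ChryM vs Ctrl (adjusted p 0.0721). The ChryM vs Model call was also lost without Model replicate 2 (0.0799), without Model replicate 3 (0.109) and with no count filter (0.0538). Prpf39 overlaps Fkbp3, which averaged 585 CPM and was called higher in Model vs Ctrl (log2 fold change 0.35, adjusted p 0.000874) and in ChryM vs Ctrl (0.48, adjusted p 5.36e-07), but not in ChryM vs Model (0.13, adjusted p 0.399). The part of Fkbp3 reads in the Prpf39 counts was not tested.

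Prpf40b, a homologue of the yeast U1 protein Prp40, had 106, 87 and 91.1 CPM in ChryM, 77.3, 77.8 and 85.3 CPM in Model and 84.9, 63.1 and 49.3 CPM in Ctrl. ChryM was above Ctrl in all libraries. The gene overlaps Mcrs1, which averaged 31.3 CPM and passed no test, and Fam186b and LOC120093946, which had no counts. The part of Mcrs1 reads in the Prpf40b counts was not tested. Prpf40b changed by a log2 fold of 0.51 ± 0.16 in ChryM vs Ctrl (edgeR adjusted p 0.0106), lost without ChryM replicate 1 (0.102), Ctrl replicate 2 (0.0502) or Ctrl replicate 3 (0.132), with DESeq2 (0.086) and with limma (0.214 and 0.215). Prpf38b had 158, 164 and 118 CPM in ChryM, 122, 104 and 123 CPM in Model and 109, 119 and 107 CPM in Ctrl. ChryM and Ctrl overlapped, since ChryM replicate 3 lay below the highest Ctrl library. Its ChryM vs Ctrl log2 fold change was 0.4 ± 0.13 (adjusted p 0.0131), lost without ChryM replicate 1 (0.0836), ChryM replicate 2 (0.129) or Ctrl replicate 1 (0.0597), with DESeq2 (0.0958) and with limma (0.222 and 0.227). Prpf19, the ubiquitin ligase at the core of its own complex, had 105, 97.1 and 113 CPM in ChryM, 64.7, 84.4 and 82.7 CPM in Model and 92, 67.7 and 94.4 CPM in Ctrl. ChryM was above both other groups, but the log2 fold change of 0.43 ± 0.15 in ChryM vs Model did not pass (adjusted p 0.0607, and 0.0276 with library totals or 0.0309 with a mean count of at least 30).

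The 3 Rbfox regulators bind the same short RNA element and differed in level. Mean levels were 77.8 FPKM for Rbfox3, 24.2 FPKM for Rbfox1 and 7.47 FPKM for Rbfox2, in that order in every group. Rbfox3 had 245, 241 and 267 CPM in ChryM, 234, 213 and 195 CPM in Model and 215, 216 and 190 CPM in Ctrl. ChryM was above both other groups in all libraries. Rbfox3 overlaps 5 other genes in the annotation, and their part in its counts was not tested. ChryM vs Ctrl gave a log2 fold change of 0.27 ± 0.1 (edgeR adjusted p 0.0418). This was the only edgeR call among the 3 Rbfox genes, or 33.3% of them, against 9.83% of all genes called higher. The call was lost without any of the 9 libraries other than Model replicate 3 (adjusted p 0.0522 to 0.19), with library totals (0.125), no count filter (0.0622), a mean count of at least 30 (0.0805), a fit of these groups alone (0.0619), DESeq2 (0.12) and limma (0.191 and 0.193).

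The 7 pan-neuronal markers, of which Rbfox3 is 1, summed to 2317 to 2344 CPM in ChryM, 2702 to 2844 CPM in Model and 2639 to 2994 CPM in Ctrl, so that the ChryM range of the list lay below the others while that of Rbfox3 lay above. Rbfox1 had 120, 149 and 106 CPM in ChryM, 152, 139 and 125 CPM in Model and 150, 134 and 146 CPM in Ctrl, with all groups overlapping and no call. Rbfox2 had 64.7, 79.1 and 64.3 CPM in ChryM, 83.7, 101 and 85.3 CPM in Model and 84.9, 79.4 and 63 CPM in Ctrl. ChryM lay below Model in all libraries, but the log2 fold change of -0.36 ± 0.16 did not pass (adjusted p 0.178).

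Other genes of the splicing pathway were read from lists outside the 72, on which the alternatives were not run. Of 41 tested spliceosome components, 3 passed in ChryM vs Model, all higher. In Model vs Ctrl 2 were higher and 1 lower, and in ChryM vs Ctrl 3 passed, all higher. This is 7.32% of the list in each comparison, against 8.27%, 12.4% and 18.8% of all genes tested in ChryM vs Model, Model vs Ctrl and ChryM vs Ctrl. The list's median log2 fold change was 0.02 in ChryM vs Model, -0.03 in Model vs Ctrl and 0.1 in ChryM vs Ctrl. Snrnp70, the 70K protein of the U1 particle, had 1673, 1644 and 1593 CPM in ChryM, 1204, 1206 and 1228 CPM in Model and 978, 993 and 984 CPM in Ctrl. The 3 groups stood apart with no overlap. Its log2 fold change was 0.43 ± 0.07 in ChryM vs Model (edgeR adjusted p 5.7e-07), 0.3 ± 0.07 in Model vs Ctrl (adjusted p 0.00125) and 0.73 ± 0.07 in ChryM vs Ctrl (adjusted p 9.51e-18). The U1-associated Luc7l2 had 159, 139 and 138 CPM in ChryM, 101, 82.7 and 86.7 CPM in Model and 130, 132 and 112 CPM in Ctrl, and its log2 fold change was 0.69 ± 0.14 in ChryM vs Model (adjusted p 7.26e-05) and -0.47 ± 0.14 in Model vs Ctrl (adjusted p 0.0121). Luc7l3 was higher in ChryM vs Model (0.46 ± 0.11, adjusted p 0.00205) and in ChryM vs Ctrl (0.43 ± 0.11, adjusted p 0.00111). Lsm4 was higher in Model vs Ctrl (0.5 ± 0.13, adjusted p 0.00299) and in ChryM vs Ctrl (0.42 ± 0.13, adjusted p 0.00941).

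Of 21 tested SR protein kinases and SR-related regulators, 3 passed in ChryM vs Model, all higher, with a list median of 0.31. In ChryM vs Ctrl 5 passed, all higher, with a median of 0.25, and in Model vs Ctrl 1 passed, which was lower, with a median of -0.03. The shares called were 14.3% in ChryM vs Model (all genes 8.27%), 23.8% in ChryM vs Ctrl (18.8%) and 4.76% in Model vs Ctrl (12.4%). Pnn, which binds SR proteins at exon junctions, had 190, 169 and 182 CPM in ChryM, 129, 131 and 119 CPM in Model and 136, 149 and 151 CPM in Ctrl. All ChryM libraries were above the others, and its log2 fold change was 0.52 ± 0.12 in ChryM vs Model (edgeR adjusted p 0.00113) and 0.31 ± 0.11 in ChryM vs Ctrl (adjusted p 0.0338). Srrm2, a large scaffold protein of nuclear speckles, had a log2 fold change of 0.31 ± 0.1 in ChryM vs Model (adjusted p 0.0326) and 0.46 ± 0.1 in ChryM vs Ctrl (adjusted p 0.000127). Pnisr rose by 0.34 ± 0.1 in ChryM vs Model (adjusted p 0.0178) and 0.52 ± 0.1 in ChryM vs Ctrl (adjusted p 1.97e-05). Rsrc2 was the gene lower in Model vs Ctrl, with a log2 fold change of -0.58 ± 0.21 (adjusted p 0.0485).

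Among 39 other splicing regulators, 3 were higher and 1 lower in ChryM vs Model, 1 higher and 3 lower in Model vs Ctrl, and 4 higher and 4 lower in ChryM vs Ctrl. That is 10.3% of the list in ChryM vs Model (all genes 8.27%), 10.3% in Model vs Ctrl (12.4%) and 20.5% in ChryM vs Ctrl (18.8%). Rbm3, a cold-inducible RNA-binding protein, had 52.5, 58.7 and 59 CPM in ChryM, 31.6, 29.8 and 34.7 CPM in Model and 56.6, 45.5 and 38.3 CPM in Ctrl. Its log2 fold change was 0.81 ± 0.22 in ChryM vs Model (edgeR adjusted p 0.00549). Qki, a regulator of splicing in glia that myelinate, had 22, 32.8 and 22.8 CPM in ChryM, 34.7, 24.8 and 29.3 CPM in Model and 54.3, 42 and 57.5 CPM in Ctrl. It was lower in Model vs Ctrl (-0.78 ± 0.23, adjusted p 0.00993) and in ChryM vs Ctrl (-0.96 ± 0.22, adjusted p 0.000367). Other genes of the list had smaller p-values in ChryM vs Ctrl. Taf15 (0.52 ± 0.11, edgeR adjusted p 5.21e-05) and Ewsr1 (0.51 ± 0.11, adjusted p 6.05e-05) were higher, and Matr3 (-0.51 ± 0.11, adjusted p 0.000221) was lower. Of 15 exon junction and nonsense-mediated decay genes, 1 was called in ChryM vs Model, 1 in Model vs Ctrl and 4 in ChryM vs Ctrl, all higher, or 6.67% (all genes 8.27%), 6.67% (12.4%) and 26.7% (18.8%) of the list. Upf3a, a factor of that decay pathway, had a log2 fold change of 0.51 ± 0.12 in ChryM vs Model (adjusted p 0.00237).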

How the data were processed

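Poly(A) RNA from rat hippocampus was sequenced in 3 libraries each of ChryM, Model and Ctrl. The authors deposited counts per gene and FPKM. HISAT2 and DESeq2 appear, per the submitters' processing notes. Which build, annotation, counter and strandedness they used is not given in the sources used here. FPKM as deposited equalled count over length and library total in 100% of values (tolerance 1e-06). From the counts, edgeR 4.0.16 (filterByExpr, trimmed mean of M-values factors, robust quasi-likelihood fit over the 3 groups with 6 residual degrees of freedom) tested 7073 genes, and p-values were adjusted by Benjamini-Hochberg over all of them. The SE given is the larger of the test's own and the counting error. Libraries held 631119 to 866048 counts, so a gene at 20 CPM had few counts and a wide error. Counts assigned to IDs without a gene name were 21.99% to 24.58% of a library and entered the totals. Alternatives used limma 3.58.1 on log2(FPKM + 1) and log2(FPKM + 0.1), DESeq2 1.42.0 (a missing adjusted p kept missing), other scalings and filters, the 2 groups alone, a replicate block, members with no overlapping gene and leaving out each library. The edgeR fit was also run on simulated counts with 50 genes planted at each fold. At 1.25-fold it called 8% of them in ChryM vs Model and 2% in Model vs Ctrl. At 1.5-fold these shares were 24% and 26%, and at 2-fold 76% and 68%. A gene without a call may therefore still have changed by a small fold. Genes named are those called, those with the 5 smallest p-values per comparison, the 2 highest by FPKM per class, the Rbfox genes, and up to 4 called genes per other list. The members and lists were chosen with earlier results of these data known. Promoter windows and gene overlaps come from RefSeq (GRCr8), which matched all 72 members for overlaps and 64 for windows.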

Additional observations from a re-analysis of the deposited data

How the results depend on the processing

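Over 18 alternatives, 4 of the 20 calls on single genes stood in every one, namely Hnrnpa1, Hnrnpul2 and Snrpd2 in ChryM vs Ctrl and Hnrnpa3 in Model vs Ctrl. In ChryM vs Model the 2 higher members became 6 with library totals, 5 with a mean count of at least 30, 1 with the replicate block and with limma at either pseudocount, and 0 with no count filter, with DESeq2 and among members with no overlapping gene, and lay between 0 and 2 without single libraries. The 0 lower became 1 with a mean count of at least 30 and stayed at 0 without single libraries. In Model vs Ctrl the 1 higher became 0 with library totals, no count filter, a mean count of at least 30, DESeq2 and limma at either pseudocount (0 to 1 without single libraries). The 6 lower became 10 with library totals, 1 with DESeq2, 3 with limma at a pseudocount of 0.1 and 3 among members with no overlapping gene (1 to 6 without single libraries). In ChryM vs Ctrl the 7 higher became 4 with library totals, 4 with a mean count of at least 30, 1 with DESeq2, 3 with limma at either pseudocount and 2 among members with no overlapping gene (1 to 7 without single libraries). The 4 lower became 2 with DESeq2 (3 to 5 without single libraries). DESeq2 gave no adjusted p for 19 of the 62 in ChryM vs Model, 20 in Model vs Ctrl and 15 in ChryM vs Ctrl, which its counts leave out.

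The median log2 fold change of the members moved in ChryM vs Model to 0.18 with library totals (0.06 to 0.15 without single libraries). In Model vs Ctrl it moved to -0.15 with library totals, -0.12 with a mean count of at least 30 and -0.16 with limma at either pseudocount (-0.07 to -0.02 without single libraries). In ChryM vs Ctrl it turned to -0.0025 with library totals, -0.07 with a mean count of at least 30, -0.0042 with limma at either pseudocount and -0.01 among members with no overlapping gene (-0.0032 to 0.09 without single libraries). Uncalled fold changes turned sign for Rbfox1 in Model vs Ctrl (0.02 without Model replicate 3) and for Rbfox3 in Model vs Ctrl (-0.08 with library totals, -0.03 with a mean count of at least 30, -0.07 with limma at either pseudocount, -0.04 without Model replicate 1 and -0.01 without Ctrl replicate 3). The cause was not tested. Over all settings without single libraries, these ranged from -0.13 to 0.02 for Rbfox1 and from -0.04 to 0.11 for Rbfox3. Same-numbered libraries of different groups deviated with correlations of -0.0304 to 0.0421, and libraries of different number with -0.0425 to 0.0629, so the numbers were not taken as pairs. The replicate block gave 1 higher and 0 lower for ChryM vs Model, then 1 and 5 for Model vs Ctrl, then 7 and 5 for ChryM vs Ctrl. The calls on Sf3b2 in ChryM vs Model (adjusted p 0.0516) and on Hnrnpdl in Model vs Ctrl (0.0502) did not pass with the block. In 3 of the 20 calls the test's own SE lay below the counting error. These were Prpf39 in ChryM vs Model and in ChryM vs Ctrl, and Hnrnpll in Model vs Ctrl. The SE printed for them is the counting error, while the p-value comes from the test, so these p-values may be too small.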
